A study of Rattus norvegicus with 10 samples.

Results

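The last 2 Mb of each of chromosomes 1 to 20 held 2762 of the 170420 autosomal tiles (1.62%) in hippocampal DNA of aged rats. Pooled over the chromosomes, their mean methylation was lower than that of the rest of the same chromosomes (-8.71 points). By chromosome, 12 ends were lower and 8 higher, and with chromosomes weighted equally the difference was -2.44 points. A tile is a window of 1000 bp, and its value in a rat is the percent of methylated CpG calls. Members were chosen by position alone: a tile belonged to an end when its start lay within 2000000 bp of the largest end coordinate that the table gives for its chromosome (build mRatBN7.2, also named rn7). Because the table itself sets that coordinate, distances below are counted from the last tile with values and not from the telomere. All 2762 tiles had at least 3 values in each line and were tested, and 2092 of them (75.7%, against 71.8% in the rest) had a value in every rat. The whole table holds 176032 tiles.

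Reduced representation bisulfite sequencing (RRBS), which cuts DNA at CCGG with the enzyme MspI and then reads methylated cytosines after bisulfite treatment, was carried out on the hippocampus of 4 HCR rats (numbers 1, 11, 15 and 19) and 6 LCR rats (numbers 12, 18, 22, 24, 26 and 30). HCR and LCR are lines bred for high and low running capacity from genetically heterogeneous N:NIH stock, here of generation 44, and every rat was an untrained female of 23 to 24 months housed in standard cages without a running wheel. The comparison asks how the hippocampal methylome differs between the lines at old age. Each rat is 1 sample of whole tissue, so a change in the share of a cell type and a change within cells cannot be told apart. The lines also differ in DNA sequence, and whether a base change at a CpG or at a cut site moves a tile was not tested. No read counts come with the percentages, so the depth behind each value is unknown.

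In mammals, methyl groups sit mainly on cytosines of CpG pairs. Gene bodies and intergenic DNA are mostly methylated, while CpG islands, short CpG-rich stretches at many gene starts, usually stay unmethylated. Chromosomes end in telomere repeats, and the DNA next to them is called subtelomeric. Terminal bands of many mammalian chromosomes are rich in genes and in GC. By convention numbering begins at the short arm, so the high end of the coordinates is the end of the long arm, and on acrocentric chromosomes the low end lies close to the centromere.

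Of the genes that the study names for end tiles, Ndufaf8 and Tepsin are listed together for a promoter tile with a called difference. That call held in only 1 of 10 fits that left out a rat. The promoter sequence is shown to mark the sites of the kind at which the assay cuts DNA. Ndufaf8 encodes a factor that helps assemble respiratory complex I, and Tepsin encodes an accessory protein of the AP-4 adaptor of vesicle transport; both roles are known from human cells. The window runs from 250 bases before to 50 bases after the Ndufaf8 start, 5′ to 3′ on the + strand of chromosome 10, from RefSeq on GRCr8. CCGG sites are in capitals.
Ndufaf8: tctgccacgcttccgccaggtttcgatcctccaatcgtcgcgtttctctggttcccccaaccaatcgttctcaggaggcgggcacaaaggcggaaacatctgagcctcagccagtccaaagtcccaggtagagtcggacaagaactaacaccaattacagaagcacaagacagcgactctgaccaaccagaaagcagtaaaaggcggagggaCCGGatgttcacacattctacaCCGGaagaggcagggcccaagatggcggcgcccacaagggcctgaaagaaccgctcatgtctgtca
The window holds 2 CCGG sites and 17 CpG pairs in 300 bases. Read on the other strand, the Tepsin window is the same sequence shifted by 1 base, with 299 of 299 shared bases identical. The motif searched was CCGG, which reads the same on both strands, and 53.0% of the 27457 promoters in the RefSeq table hold it. Among the 18 genes listed for end tiles, 13 had a promoter in that table, of which 11 held CCGG. Their CpG number ran from 1 for Myt1 to 45 for Pard3, with a median of 23, against a median of 7 over all promoters. The listed genes come from tiles of an assay that cuts at CCGG, and all promoters were taken without that condition. These sets are therefore not alike, and the part of this selection was not tested. Since the files use another build, the window could not be placed within a tile.

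Ends were not uniformly denser or sparser in tiles than the rest of their chromosomes. Pooled over all 20, they held 69.05 tiles per Mb and the rest 69.2, a ratio of 0.998. This near equality was made of unlike ends, since 4 were denser than the rest of their chromosome and 16 were sparser. The 5 ends with the most tiles, those of chromosomes 3, 5, 7, 10 and 12, held 1659 end tiles, or 60.1%. The ratio depended on the window, being 0.806 for the last 1 Mb and 1.41 for the last 5 Mb. No test was made, because the list of tiles is shared by all rats.

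The end of chromosome 5 was the densest, with 198 tiles per Mb against 72.1 in the rest (ratio 2.75). Chromosome 3 had 160.5 against 71.5 (ratio 2.25), and chromosome 7 had 158.5 against 75.5 (ratio 2.10). Chromosome 10 had 164 against 111, a smaller ratio of 1.48, its rest being dense as well. Counted among all 2 Mb windows of their own chromosome from the same end, these ends ranked 9 of 84 on chromosome 3, 9 of 83 on chromosome 5, 8 of 67 on chromosome 7 and 11 of 53 on chromosome 10, so none was its chromosome's densest window. Chromosome 12 ended with 148.5 tiles per Mb, somewhat fewer than the dense ends, against 157 in the rest of that chromosome (ratio 0.947).

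Chromosome 16 had the sparsest end, with 17.5 tiles per Mb against 67.4 (ratio 0.259), and chromosome 20 had 35.5 against 115 (ratio 0.308). Chromosomes 15 and 19 stood at ratios of 0.397 and 0.400, and chromosomes 13 and 18 at 0.485 and 0.487. In all, 12 ends had under 0.75 of the density of the rest. The sparser ends with ratios above that were those of chromosomes 1 (0.789), 4 (0.815), 8 (0.844) and 12. An end tile had a neighbouring tile directly beside it in 52.5% of cases, against 45.5% in the rest, and the share ran from 17.1% on chromosome 16 to 68.6% on chromosome 10.

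**Figure D1:**
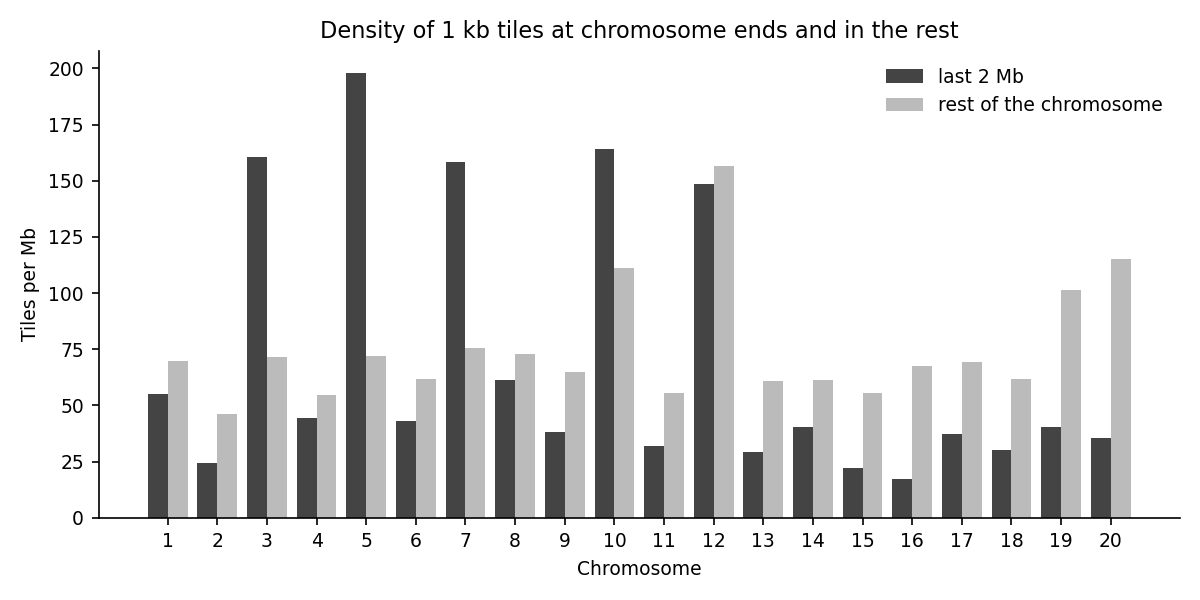
Tiles of 1 kb per Mb (vertical axis) in the last 2 Mb (dark bars) and in the rest (light bars) of each of 20 chromosomes (horizontal axis). The dark bar is the taller one on chromosomes 3, 5, 7 and 10 and the shorter one on the other 16.

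Tiles thinned out towards the end. The last 0.5 Mb held 56.4 tiles per Mb over all chromosomes, the next 0.5 Mb 55.3, then 70.7 and 93.8, and the stretch from 2 to 4 Mb held 110.6. From 4 to 6 Mb the density was 127.3 and from 6 to 10 Mb 123.6, well above the 69.2 of all autosomal DNA outside the ends. The stretch from 2 to 4 Mb was denser than the last 2 Mb on 16 chromosomes and sparser on 4. The first 2 Mb of the same chromosomes held 2256 tiles, or 56.4 per Mb.

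The 2092 end tiles that every rat covered averaged 38.2% ± 2.08 (SD, n = 10 rats) of methylation, and the 120300 such tiles of the rest 46.9% ± 2.44. In the HCR rats the ends stood at 37.7% (rat 1), 39.99% (rat 11), 37.1% (rat 15) and 41.6% (rat 19). The LCR rats had 36.3% (rat 12), 39.9% (rat 18), 36.9% (rat 22), 40.2% (rat 24), 36.8% (rat 26) and 35.2% (rat 30). HCR rat 19 was highest and LCR rat 30 lowest, and the lines overlapped. The rest ran alongside, from 43.5% in LCR rat 30 to 50.9% in HCR rat 19. Each rat's ends were lower than its own rest, within a narrow range of -9.32 to -8.24 points (10 of 10 rats, 2-sided exact sign-flip permutation test, p = 0.00195, the smallest that 10 rats allow).

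This test counts rats and not ends, and the ends themselves went both ways. When every chromosome was given the same weight, the difference shrank to -2.44 points, still with the same sign in the test over rats (exact permutation p = 0.00195). Without the 4 dense ends it was -2.58 points, and over those 4 alone -13.1 points; this division was chosen after seeing the data. The 4 dense ends averaged 31.3% (28.2 to 34.8% over rats) against 44.4% in the rest of their chromosomes, and the 16 sparse ends 45.2% (42.5 to 48.5%) against 47.8%. Across the 20 ends, the ratio of densities and the level of the end had a Pearson's r of -0.525 and a Spearman's rho of -0.612, given as a description with no test, since the ends share the same rats and libraries.

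More end tiles were unmethylated. Of the end tiles, 30.6% had a mean under 5%, against 21.2% of the rest. At the upper side, 18.3% lay between 80 and 95% and 2.92% at 95% and over, against 24.4% and 4.02% of the rest. The classes between them held 14.1% against 12.5% at 5 to 20%, 17.1% against 17.5% at 20 to 50% and 16.97% against 20.4% at 50 to 80%. At the 4 dense ends 35.4% of tiles were under 5% and 12.7% at 80% and over, against 22.6% and 25.3% in the rest of those chromosomes. At the 16 sparse ends the shares were 25.7% and 29.8%, against 20.6% and 29.6% in the rest. The smaller share at 80% and over was thus found at the dense ends and not over the sparse ones pooled. Single sparse ends ran from 17.3% on chromosome 12 to 68.4% on chromosome 16. Chromosomes 13 (18.2%), 1 (18.75%) and 8 (19.3%) were also low, near the dense ends of chromosomes 3 (15.3%) and 5 (16.6%). Among single ends, that of chromosome 7 had the smallest share at 80% and over, 8.70%, and that of chromosome 14 the largest share under 5%, 43.3%.

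The fall was deepest at 0.5 to 1 Mb from the last tile. The mean level was 44.0% in the last 0.5 Mb, 28.2% at 0.5 to 1 Mb, 36.6% at 1 to 1.5 Mb and 41.9% at 1.5 to 2 Mb. Farther in it reached 46.8% at 2 to 4 Mb, close to the rest, and 49.7% at 6 to 10 Mb. In single rats the bin from 0.5 to 1 Mb ran from 25.9 to 30.2% and the last 0.5 Mb from 41.8 to 46.4%, so those bins did not overlap. Chromosome 7 supplied 111 of the 428 complete tiles of the low bin at a mean of 13.6%, and without it the bin stood at 33.4%. With chromosomes weighted equally the same bins were at 50.6, 37.0, 46.7 and 46.9%. The level was lower at 0.5 to 1 Mb than in the last 0.5 Mb on 13 chromosomes and higher on 7, and 14 ends had under 20 complete tiles there, so single ends say little about the shape. The first 2 Mb of the chromosomes averaged 51.0% (48.7 to 53.3% over rats), above both the rest and the distal ends.

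**Figure D2:**
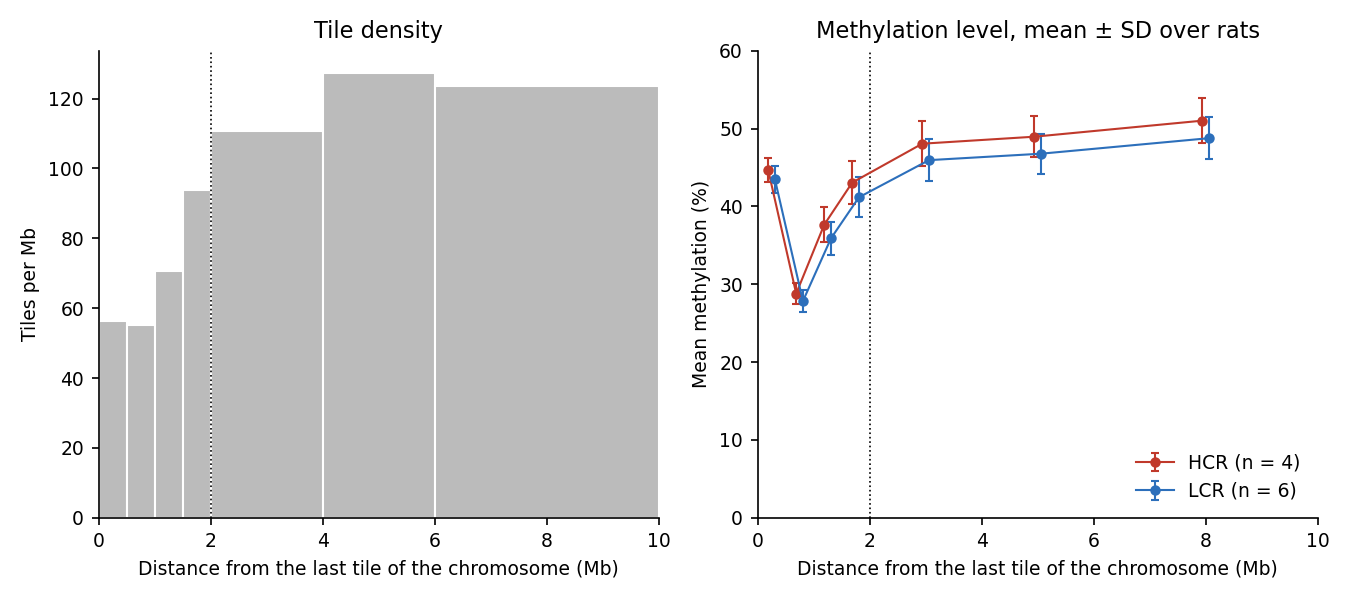
Left, tiles per Mb, and right, mean methylation in percent (points and bars are the mean ± SD of 4 HCR and 6 LCR rats), against the distance from the last tile in Mb; the dotted line marks 2 Mb. Density rises from 56.4 to 110.6 tiles per Mb between the last 0.5 Mb and the stretch of 2 to 4 Mb, the level is lowest at 0.5 to 1 Mb (28.2% over all rats), and the lines run side by side.

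Chromosome by chromosome, 12 ends were lower and 8 higher than the rest of their chromosome, each with a Benjamini-Hochberg adjusted p under 0.05 over 20 exact sign-flip tests. Such a test shows that rats agree in sign over the same tiles, and not that an end is unusual for its chromosome. Chromosome 7 lay farthest below, its end at 24.6% (22.4 to 26.8% over rats) against 45.4%, and its level was lower than that of 65 of 65 other 2 Mb windows of the chromosome with at least 20 complete tiles. Chromosome 10 ended at 25.4% against 41.2%, lower than 52 of 52 such windows. Windows above the end numbered 118 of 124 on chromosome 1, 74 of 79 (3), 63 of 76 (5) and 55 of 60 (8). They numbered 18 of 22 (12), 47 of 48 (13), 37 of 42 (17) and 24 of 25 (20). Ends nearer the middle had 42 of 111 (2), 42 of 81 (4), 24 of 65 (6), 26 of 41 (11) and 26 of 46 (15). Fewer windows lay above the ends of chromosomes 9 (13 of 53), 16 (1 of 39), 18 (2 of 39) and 19 (5 of 26). Chromosome 3 ended at 33.3% against 45.2% and chromosome 5 at 40.2% against 46.1%. All 4 dense ends were thus lower in every rat, but with the last 5 Mb chromosomes 3 and 5 turned higher than the rest (1.72 and 1.24 points).

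Low levels were not confined to dense ends. Chromosome 14 ended at 34.6% against 50.04%, below 49 of 49 other windows, with only 60 complete tiles. Chromosome 13 ended at 36.1% against 50.7%, chromosome 20 at 37.0% against 48.7%, chromosome 1 at 34.0% against 44.7%, chromosome 8 at 35.5% against 45.8% and chromosome 17 at 38.2% against 47.2%. These ends, all sparser than the rest, were lower in 10 of 10 rats. With the last 5 Mb chromosomes 1 and 20 changed sign (0.258 and 8.38 points), as did chromosome 17 against the first 2 Mb (3.11 points), and chromosome 8 was at -0.277 points over tiles of 5 to 95% (exact sign-flip adjusted p = 0.475). Chromosome 12 ended at 40.7% against 45.6%, also lower in every rat. Chromosome 11 ended at 49.7% against 51.2% and lower in 9 rats, but its sign changed under several other choices, among them the last 1 Mb (7.44 points higher) and the next 2 Mb inward as the reference (14.3 points higher).

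Among the higher ends, chromosomes 16 and 18 stood out. Chromosome 16 ended at 75.7% (71.8 to 78.3% over rats) against 48.8%, from 19 complete tiles, of which 68.4% were at 80% and over. Chromosome 18 ended at 71.9% (68.7 to 74.4%) against 48.1%, with 63.2% of 38 complete tiles at 80% and over. Its next stretch inward, from 2 to 4 Mb, was at 70.5%, and the end exceeded that stretch by only 1.40 points. The high level on chromosome 18 was thus not particular to the last 2 Mb. Chromosome 19 ended at 58.3% against 46.4%. Smaller excesses were found at chromosome 9 (56.1% against 49.4%), chromosome 2 (54.9% against 48.9%), chromosome 6 (51.1% against 47.3%) and chromosome 4 (51.8% against 48.5%), each in 10 of 10 rats. These 4 turned lower under another choice, chromosome 9 with the last 1 Mb (-0.400 points) and chromosomes 2, 4 and 6 against the first 2 Mb (-2.52, -7.62 and -32.3 points). The end of chromosome 15 was 0.972 points higher in 8 rats and lower in 2 (exact sign-flip p = 0.0352), and leaving out HCR rat 1 or 15, or LCR rat 18, 22 or 30, raised the adjusted p to 0.0703; with the last 5 Mb it was lower than the rest (-5.87 points).

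**Figure D3:**
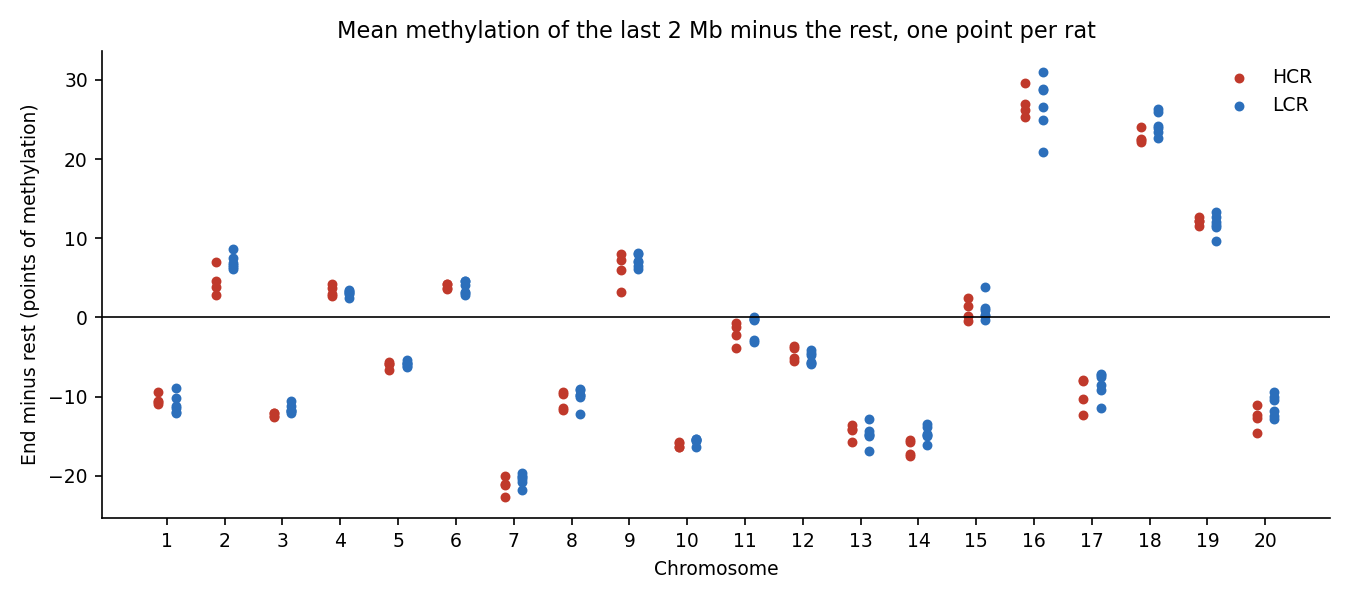
Mean methylation of the last 2 Mb minus that of the rest, in points (vertical axis), for each chromosome (horizontal axis), with a point for each HCR rat (red) and LCR rat (blue). The rats cluster tightly within a chromosome while chromosomes spread from -20.7 points (chromosome 7) to 26.9 points (chromosome 16).

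HCR rats had 39.1% ± 2.07 (SD, n = 4) and LCR rats 37.6% ± 2.02 (SD, n = 6) over the end tiles, a difference of 1.52 points that was smaller than the spread within either line (2-sided exact permutation test, p = 0.248) and that turned to -0.387 points when the mean of each rat was set equal and to -0.788 points after quantile normalization. The difference was 0.697 points without HCR rat 19, 2.43 points over tiles with at least 3 values per line and 2.94 points for medians, with the lines past the threshold in none of these. In the rest the lines differed by 1.92 points (48.0% ± 2.42 against 46.1% ± 2.32, exact permutation p = 0.219). The test of whether the ends differ from the rest in this respect gave -0.394 points, as ends minus rest was -8.94 points in HCR and -8.55 points in LCR rats (exact permutation p = 0.129). It was past 0.05 only without LCR rat 24 (-0.518 points, exact permutation p = 0.0317) and over the 4 dense ends alone, a subset chosen after seeing the data (-0.510 points, exact permutation p = 0.0286). With end tiles weighted to the level classes of the rest, the difference was -0.207 points (exact permutation p = 0.162).

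On the deposited scale 19 of 20 ends and 20 of 20 rests were higher in HCR rats, but only 7 ends were higher with rat means set equal and 2 after quantile normalization. The rests differed by 1.71 to 2.16 points, a narrow range beside that of the ends, which hold far fewer tiles. Chromosome 13 had the widest difference with HCR higher, 37.6% ± 3.18 against 35.1% ± 2.98 (2.50 points). Only chromosome 2 had an end lower in HCR rats, 54.5% ± 1.08 against 55.2% ± 1.74. No end separated the lines without overlap, and the exact permutation p was under 0.05 at 0 of 20 ends (smallest p 0.0667 on chromosome 1, smallest adjusted p 0.440).

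Set against the rest of the same chromosome, the line difference was larger at 7 ends and smaller at 13. At 3 ends the unadjusted exact permutation p was under 0.05, and at none after adjustment over 20 (smallest adjusted p 0.222). Those 3 ends were chromosome 2 (-2.48 points, p = 0.0238 by exact permutation), chromosome 3 (-0.758 points, p = 0.0238 by exact permutation) and chromosome 14 (-1.78 points, p = 0.0333 by exact permutation). With the last 1 Mb in place of 2 Mb, chromosomes 2 (-3.83 points) and 14 (-3.33 points) passed, each at an adjusted p of 0.0476 by exact permutation. At chromosome 1 the line difference of the end was 2.37 points against 1.82 in the rest. Without the last 2 tiles of that chromosome, which are described below, it was 1.61 points over 78 tiles, so that end minus rest turned from 0.552 to -0.206 points, an alternative chosen after seeing the data.

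**Figure D4:**
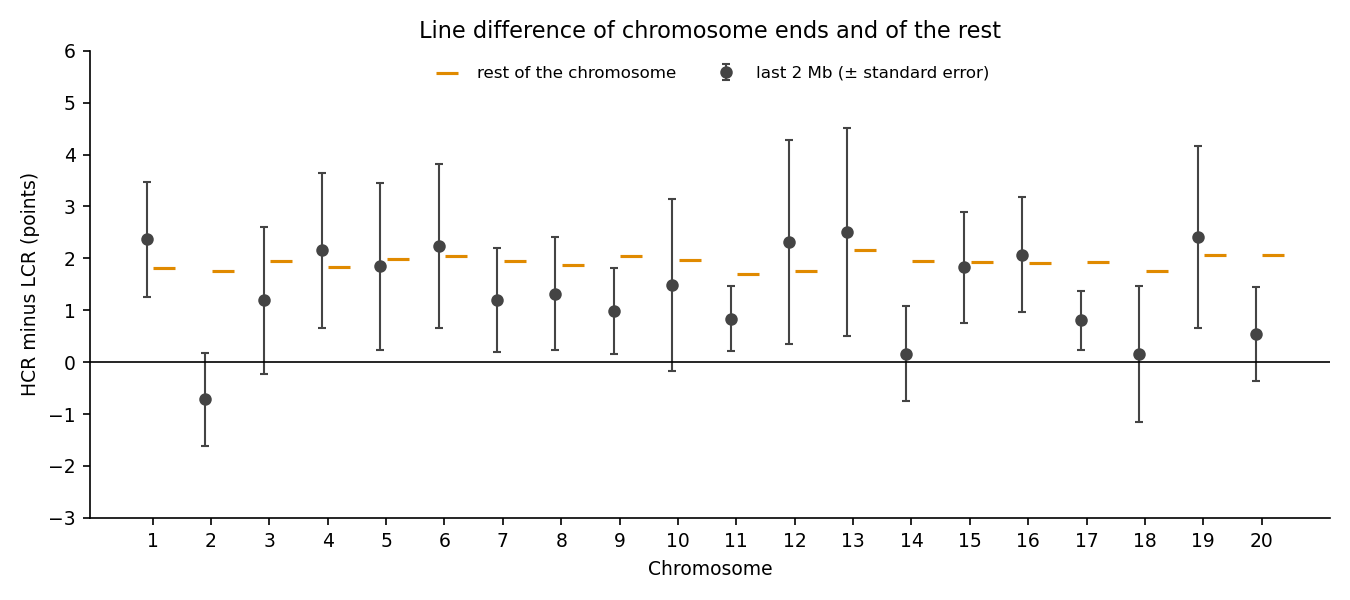
HCR minus LCR in points of mean methylation (vertical axis) for the last 2 Mb (dark points, bars are the standard error over 4 and 6 rats) and for the rest (orange marks) of each chromosome (horizontal axis). The rests lie between 1.71 and 2.16 points, and the end of chromosome 2 is the only one below 0.

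By level class, end tiles at 20 to 50% differed between the lines by 2.79 points (36.1% ± 6.05 against 33.3% ± 5.05) and such tiles of the rest by 3.50 points. The gap of -0.713 points between them had an exact permutation p of 0.0190, or 0.114 adjusted over 6 classes. End tiles under 5% were at 1.80% in HCR and 1.68% in LCR rats, and those at 80 to 95% at 89.0% and 87.3% (exact permutation p = 0.0524, adjusted p = 0.314 over 6 classes).

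HCR rats had a value in 96.7% ± 1.65 of the end tiles and LCR rats in 94.0% ± 2.63, a difference of 2.73 points (exact permutation p = 0.114). The rest showed 2.62 points (p = 0.167 by exact permutation), and ends and rest did not differ in this respect beyond the spread (0.110 points, p = 0.729 by exact permutation). LCR rat 12 lacked the most, 273 end tiles, and HCR rat 19 the fewest, 31. Without LCR rat 26, the p of the ends was 0.0476 by exact permutation. The end of chromosome 16 had the widest gap, with 15.7% of its tiles missing in LCR rats on average and 2.14% in HCR rats. The part of missing values in the differences of level was not tested.

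Tile by tile, limma called 5 of the 2762 end tiles (0.181%), which had an adjusted p under 0.1 and lines at least 5 points apart, beside 0.0858% of all 176004 tiles tested. Of these, 3 were higher and 2 lower in HCR rats. At an unadjusted p under 0.005 and the same difference there were 38 end tiles (1.38%), beside 1.03% of all, with 24 higher and 14 lower in HCR. Past that limit HCR rats were thus higher in 63.2% of end tiles and in 75.8% of all tiles. The lines did not overlap in 35 of 2092 end tiles (1.67%), beside 1.89% of all tiles with a value in every rat. The share of called end tiles was thus above that of the whole table, on a count of 5, and the share without overlap slightly below it. HCR rats were higher in 62.8% of end tiles and 64.7% of all, and the median difference was 0.503 and 1.01 points. The 38 tiles were spread over 12 ends. The largest counts were 8 of 328 tested tiles on chromosome 10 and 6 of 110 on chromosome 1, the larger share being that of chromosome 1.

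The last 2 tiles of chromosome 1, side by side, were both called and both higher in HCR rats. The tile from 260517001 to 260518000, with which the table's chromosome 1 ends, had 77.5, 84.6, 86.8 and 84.0% in HCR rats 1, 11, 15 and 19. LCR rats 12, 18, 22, 24, 26 and 30 had 29.3, 32.1, 34.8, 49.5, 56.3 and 40.1%. Each HCR rat thus stood above every LCR rat, and the means were 83.2% ± 3.98 and 40.3% ± 10.6, a difference of 42.9 points (standard error 6.55, limma adjusted p = 0.0757). Its neighbour, from 260516001 to 260517000, had 95.9, 100, 96.0 and 89.4% in the HCR rats. In the LCR rats it had 69.5, 74.9, 76.8, 73.6, 76.5 and 74.5%. Here too the lines did not overlap, at 95.3% ± 4.39 against 74.3% ± 2.66 (21.02 points, standard error 2.65, limma adjusted p = 0.0387). The study's tables list both as intergenic or unannotated open sea, which means far from CpG islands. The outer tile was called in only 1 of 10 fits that each left out a rat and the inner one in 8 of 10, the difference staying between 38.4 and 46.1 points and between 19.1 and 23.0 points over every alternative.

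A further called tile of chromosome 1, from 259131001 to 259132000 and 1387 kb from the end, went the other way. HCR rats had 65.3, 63.9, 58.4 and 58.2%, and LCR rats 88.9, 94.0, 84.7, 79.6, 85.8 and 90.2%, without overlap. The difference was -25.7 points (standard error 3.41, limma adjusted p = 0.0450), and the call held in 3 of 10 fits without a rat. The tile 1 kb farther on showed 74.8% against 71.0%, a difference of 3.78 points, so the fall did not extend to it. This tile is also listed as intergenic or unannotated.

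The tile that the study lists at the promoter of Ndufaf8 and Tepsin lies on chromosome 10 from 105382001 to 105383000. It is 1792 kb from the end and listed on the shore of a CpG island. HCR rats had 34.4, 26.6, 11.9 and 34.3%, while the LCR rats had 0, 0, 2.17, 2.38, 2.07 and 4.04%. All LCR rats were thus near 0 and HCR rat 15 lay lowest in its line. The means were 26.8% ± 10.6 and 1.78% ± 1.55 (25.0 points, standard error 3.75, limma adjusted p = 0.0704). The adjacent tile on the lower side was at 0.685% and 0.931%, so the neighbouring 1 kb was unmethylated in both lines. The call held only without HCR rat 15 among the fits that left out a rat, at an adjusted p of 0.00142, and the adjusted p went up to 0.167 without HCR rat 1.

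In an intron of Pard3, which encodes a scaffold of cell polarity, the tile of chromosome 19 from 55567001 to 55568000 was lower in HCR rats. They had 79.3, 68.7, 71.9 and 70.1%, against 94.0, 95.9, 99.6, 91.4 and 87.9% in LCR rats 12, 18, 24, 26 and 30, rat 22 having no value. The lines did not overlap, at 72.5% ± 4.76 (n = 4) and 93.8% ± 4.45 (n = 5), a difference of -21.3 points (standard error 3.22, limma adjusted p = 0.0878). The tile 5 kb farther on was at 8.10% against 13.9%. The Pard3 call was lost in 10 of 10 fits that left out a rat, its limma adjusted p reaching 0.202 without LCR rat 12. On the logit scale the limma adjusted p was 0.392.

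**Figure D5:**
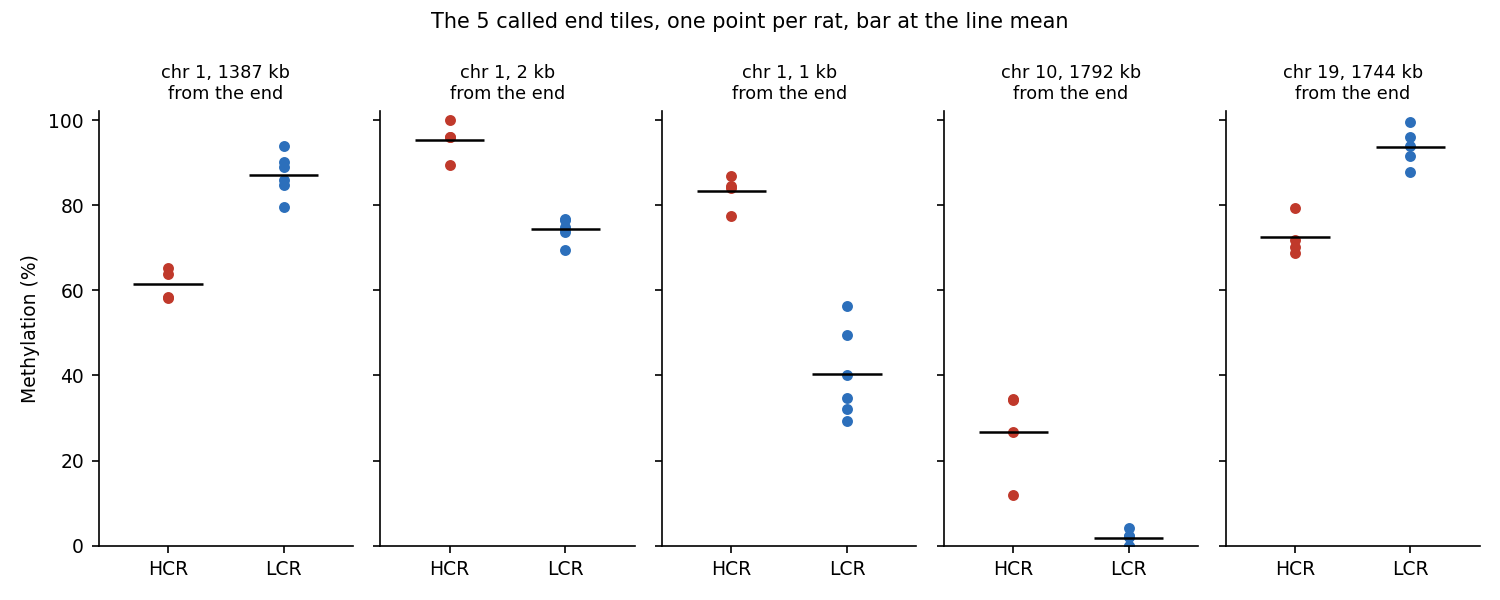
Methylation in percent (vertical axis) of the 5 called end tiles, a panel each, with a point for each HCR rat (red) and LCR rat (blue) and a bar at the line mean. The lines do not overlap in any panel, and the panel of the last tile of chromosome 1 has the widest gap, 83.2% against 40.3%.

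The rows of the study's tables of differential tiles that were used here, for names only, hold 36 end tiles, of which 19 carry a gene. For scale, ends make up 1.62% of the autosomal tiles. Those rows are the first 1999 of its list of differential tiles and its list of tiles correlated with VO2max, so the counts below cover a part of what the study listed. They were picked by the study on these same rats, so their differences are no independent evidence, and 2 of the 19 (Ndufaf8 with Tepsin, and Pard3) were called here. HCR rats were higher in 14 and lower in 5, and most differential tiles of the study are higher in HCR rats as well. Of the 19, 16 lie on chromosomes 3, 7 and 10, whose ends hold 321, 317 and 328 of the 2762 end tiles. By feature, 9 were exonic, 6 intronic, 2 at a promoter and 2 upstream of a gene. Of 8 gene families looked for by symbol in these rows, zinc finger genes (Zfp385a), keratins (Krt8) and microRNAs (Mir3594) had 1 tile each, and olfactory receptors, vomeronasal receptors, ion channels, glutamate and GABA receptors and collagens had 0, which says nothing of the rows not used. The search by symbol does not count Myt1, a zinc finger factor named below.

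On chromosome 3, the exon tile of Tpd52l2, a member of the tumour protein D52 family, stood at 95.2% ± 3.88 in HCR and 81.7% ± 2.89 in LCR rats without overlap (13.5 points, limma adjusted p = 0.133). The exon tile of Oprl1, the receptor of nociceptin, was at 97.5% and 87.7% (n = 3 and 6), also without overlap. Myt1, a zinc finger factor of neural and oligodendrocyte development, had a pair of exon tiles at 78.6% against 68.6% and 59.4% against 41.0%, and the lines overlapped in both. Lama5, which encodes a laminin chain of basement membranes, had an exon tile at 80.8% against 76.3% (n = 4 and 4). None of these passed the test (limma adjusted p 0.133 to 0.811), though Tpd52l2 did with no trend (limma adjusted p = 0.0875) and among tiles with a value in every rat (0.0884).

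On chromosome 7, an intron tile of Zfp385a, a zinc finger protein, was at 26.9% ± 8.58 in HCR and 12.5% ± 2.01 in LCR rats without overlap (14.4 points, limma adjusted p = 0.308). An exon tile of Krt8, a keratin of simple epithelia, was at 85.2% against 93.3% (n = 4 and 4), HCR rats being below LCR rats throughout, and an exon tile of Espl1, the protease separase that frees sister chromatids, was at 90.6% against 84.2% (n = 3 and 3). On chromosome 5, an intron tile of Mmel1, a membrane metallopeptidase, was at 47.2% and 39.5% (n = 3 and 4). These tiles did not pass the test either (limma adjusted p 0.308 to 0.882).

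Among the rows used, chromosome 10 had the longest series of listed genes. The promoter tile of Cep131, a protein of centrosomes and cilia, and Mir3594 was at 82.8% ± 12.2 in HCR and 57.0% ± 9.02 in LCR rats, the 4 HCR rats at 66.5, 80.8, 93.9 and 89.8% and the LCR rats between 40 and 64.1% (25.8 points, limma adjusted p = 0.376). The lines did not overlap, yet the tile fell short of the limit. The mature forms of Mir3594, shown because they are the only microRNA listed, have unlike seeds (bases 2 to 8, in capitals), as RefSeq gives them on the - strand of chromosome 10.
rno-miR-3594-3p: cACACCGCcucugcccgcuagu
rno-miR-3594-5p: cCCAGGGCagagcagugugaa
An intron tile of Cep131 was at 10.7% against 3.803%. Fasn, the fatty acid synthase, had an upstream tile at 44.8% ± 6.59 and 29.8% ± 7.07. Notum, an enzyme that inactivates Wnt ligands, had an exon tile at 61.0% and 48.7% without overlap. P4hb, a protein disulfide isomerase of the endoplasmic reticulum, had an upstream tile that was lower in HCR rats, 80.02% against 92.3% (n = 3 and 4), and Baiap2, which links membranes to actin at synapses, had an exon tile at 95.8% and 89.3% and an intron tile at 2.32% and 10.7% (n = 3 and 3). On chromosome 17, an intron tile of Lyst, a regulator of lysosome traffic, was at 67.6% ± 1.79 in HCR and 82.8% ± 5.39 in LCR rats (n = 4 and 4), without overlap (limma adjusted p = 0.390). The limma adjusted p of these uncalled tiles ran from 0.321 to 0.668.

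Of the 20 tiles that close a chromosome in the table, 11 had a mean of 80% or more and 3 were under 20%. The median was 80.9%, from 1.04% on chromosome 8 to 97.7% on chromosome 13. Besides chromosome 8, the last tiles of chromosomes 10 (1.28% in HCR and 1.22% in LCR rats) and 17 (7.76% and 10.8%) were low. At an unadjusted p under 0.05 the lines differed in 1 of the 20, the last tile of chromosome 1.

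For each end, the complete tile with the smallest p gives the scale of what did not pass. Outside chromosomes 1 and 10 these 18 tiles had limma adjusted p-values between 0.133 (Tpd52l2, chromosome 3) and 0.732 (chromosome 11). Next after Tpd52l2 came a tile 1194 kb from the end of chromosome 7, at 13.1% ± 1.24 in HCR and 6.83% ± 2.07 in LCR rats without overlap (6.25 points, limma adjusted p = 0.147). On chromosome 17 a tile listed as intergenic, 1044 kb from the end, was at 79.8% ± 3.78 against 64.3% ± 4.28 (15.5 points, limma adjusted p = 0.329), and on chromosome 4 another such tile was at 82.3% ± 2.25 against 68.4% ± 4.18 (13.96 points, limma adjusted p = 0.309). On chromosome 2 the tile 263 kb from the end was lower in HCR rats, 57.7% ± 4.94 against 79.8% ± 9.12, with overlap through LCR rat 12 at 61.9%.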

How the data were processed

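The authors trimmed RRBS reads with Trim Galore 0.6.10, aligned them to mRatBN7.2 with Bismark and Bowtie2, kept CpGs with a coverage of at least 5, summed them in tiles of 1000 bp with at least 3 CpGs using methylKit, and required 3 rats per line. Libraries were pooled before bisulfite conversion, with no batch correction. HCR rats that failed quality control in the study are not analysed here. What was deposited is the percent methylation of each tile in each rat; an empty cell was taken as no value. Because the study's chi-square test needs read counts, limma 3.58.1 in R 4.3.3 was run on the percent values (mean-variance trend, no covariate), with Benjamini-Hochberg adjustment over the 176004 tiles that vary. A tile was called where the adjusted p was under 0.1 and the lines were at least 5 points apart, the study's limits. Means over ends used tiles with a value in every rat. Lines were compared by exact permutation over 210 splits of the rats, and ends with the rest by sign flips over 1024 patterns, both 2-sided. P-values measure the spread between these rats. Python 3.11.15 was used. The tests were tested on simulated data.

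Tiles named are those called, the smallest p and the last tile of each end, and, added after the files were seen, the tiles listed with a gene. Genes and features came from the first 1999 rows of the study's list of differential tiles, used here only in part, and from its list of tiles correlated with VO2max. The chromosome ends, families and named tiles were chosen with earlier results of these data known. Promoter and microRNA sequences are RefSeq's on GRCr8, and no coordinates of that build are given. Alternatives covered windows, references, weights, scales, normalizations, filters and leaving out each rat.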

Additional observations from a re-analysis of the deposited data

Results flagged for a closer look

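Single rats stood apart from their line in 3 of 56 groups examined, where chance alone gives about 1 in 20. At the end of chromosome 8, LCR rat 24 stood at -12.2 points from the rest of the chromosome, while the other LCR rats lay between -10.0 and -9.08 points. The same rat stood at -16.4 points at the end of chromosome 10, the others between -15.6 and -15.3 points. At the end of chromosome 15, LCR rat 30 was at 3.85 points, the others between -0.300 and 1.18 points, and without that rat the end of chromosome 15 was 0.652 points above the rest.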

How the results depend on the processing

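The lower level of the ends kept its direction and its p under 0.05 in all alternatives, from -19.5 points for medians to -2.44 with chromosomes weighted equally (-0.931 on the log2 logit scale). The difference of differences turned to 0.0816 points with the last 5 Mb and 0.339 against the first 2 Mb; without a rat it ran from -0.518 to -0.268, and over the 4 dense ends alone it was -0.510. The line difference of the ends turned to -0.788 after quantile normalization and -0.387 with rat means set equal, and the line difference in the share of values was 1.96 to 3.35 points without a rat. The density ratio was 0.806 (1 Mb), 1.41 (5 Mb) and 1.05 (tiles complete in every rat). Called end tiles numbered 6 with no trend (Tpd52l2 among them), 3 on the logit scale, 1 after quantile normalization, 0 to 3 without a rat, 2 in the last 1 Mb and 15 in the last 5 Mb; at the unadjusted limit they numbered 25 with a value in every rat, 24 to 36 without a rat, 12 in 1 Mb and 123 in 5 Mb. Without HCR rat 1 limma called 0 end tiles, 207 being at an unadjusted p under 0.05. In the fits that kept every rat, the call held in 3 of 6 for the inner and 5 of 6 for the outer of the last 2 tiles of chromosome 1, in 4 of 6 for the other called tile there, in 5 of 6 for Ndufaf8 and in 2 of 5 for Pard3.

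Per end, the level reversed in 17 of 380 values over 11 chromosomes. With 1 Mb it was -0.400 (chromosome 9) and 7.44 points (11); with 5 Mb 0.258 (1), 1.72 (3), 1.24 (5), -5.87 (15) and 8.38 (20); with tiles of at least 3 values per line -0.00643 (4), 1.62 (11) and -1.62 (15). On chromosome 11 it was 3.56 for medians, 15.8 for tiles of 5 to 95% and 14.3 against 2 to 4 Mb. Against the first 2 Mb it was -2.52 (2), -7.62 (4), -32.3 (6) and 3.11 (17). The cause of these changes was not tested. Of 381 values of the line difference minus the rest per end, 41 turned sign, none of them of a called difference, and 2 gained a call, chromosomes 2 (-3.83) and 14 (-3.33) with 1 Mb. No paired analysis was possible because the lines share no rat numbers. Depth is unknown, so precision per tile could not be weighed.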
